A study of Mus musculus with 12 samples.

Results

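The genes described here lie on mouse chromosome 17 within 3 Mb of 2310061I04Rik, a stretch that holds the major histocompatibility complex (MHC). They were chosen by position and level: protein-coding genes whose start lies in the window of chromosome 17 (build GRCm38) between 32892677 and 38897431, with a mean of 50 or more counts over 12 embryos. Of 248 protein-coding genes that start in the window 82 had no count in any embryo, 53 were olfactory receptor genes with a mean count under 1, and 97 reached the minimum. 7 of these 97 were left out by name (2310061I04Rik itself, Ier3, Tubb5, Notch4, Mrps18b, Ndufa7 and Hnrnpm), which gave 90 members of 54532 genes in the table. The members just inside the minimum were H2-Q6 and B3galt4, with means of 51.7 and 51.9 counts, and those just outside were Atp6v1g2 and Col11a2, with 37.0 and 31.3 counts. A start is the lower coordinate of a gene. All 90 were tested with edgeR among 14804 genes. No fold change was used to choose them.

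Bulk RNA of 12 embryos at embryonic day 9.5 was sequenced, 6 Traf7-*/-* (KO) and 6 wild type (WT), of the C57BL6/J strain by their labels. KO embryos were homozygous for a Traf7 allele whose loxP-flanked exons were removed in the whole body through E2a-Cre. The asterisk marks a second change in the same line, which came from 1 embryonic stem cell clone: part of an intron of 2310061I04Rik was lost. WT embryos carried no stated change. Traf7 and 2310061I04Rik start 11.4 Mb apart on chromosome 17, so the effects of losing either gene, and of any other chromosome 17 sequence inherited with the targeted allele, cannot be told apart in these groups. The series title and design text speak of brain, whereas the label of each sample gives a day 9.5 embryo, which was followed. Litters are not given, so the p-values speak only of how these embryos vary.

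The MHC is a dense, conserved block of genes. Class I molecules, made of a heavy chain and beta-2 microglobulin, show peptides from inside the cell to cytotoxic T cells, and class II molecules, pairs of an alpha and a beta chain, show peptides from taken up material to helper T cells. Between and around these genes lie many others with no part in immunity, for chromatin, RNA processing, protein folding and trafficking. Before birth most tissues make little class I and almost no class II, and class II is best known from dendritic cells, B cells and macrophages, in which the coactivator CIITA turns its genes on.

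Libraries held 16675204 to 21917571 counts, so that 0 counts allows up to 3 counts, or 0.136 to 0.180 CPM. CPM here means counts in each 1000000 counts of a library, with library sizes adjusted by the TMM method. The genes changed in this line followed the labels. Traf7 (24508562 to 24527938, minus strand) had 13.1 to 19.3 CPM (median 17.4) in KO embryos and 114.5 to 144 CPM (median 118) in WT embryos, a log2 fold change of -2.83 (SE 0.0918, edgeR adjusted p = 2.4e-10). 2310061I04Rik (35892677 to 35897431, minus strand) had 1.14 to 6.39 CPM (median 1.72) in KO embryos and 7.20 to 15.8 CPM (median 13.5) in WT embryos. The groups did not overlap, and KO embryo 6, at 6.39 CPM, was the KO embryo nearest to WT. WT embryos 2 and 4 were lowest of WT, at 7.20 and 8.05 CPM, and the remaining WT embryos had 12.5 to 15.8 CPM. The fitted log2 ratio was -2.35 (SE 0.397), with adjusted p = 0.155 by the quasi-likelihood test of edgeR, 0.000142 by DESeq2 and 8.33e-05 by edgeR without KO embryo 6. KO embryos 2, 3 and 5 stood apart: the interquartile range of log2 ratios to the WT mean over all genes was 0.30, 0.39 and 0.68 in these, 0.21 to 0.24 in the KO embryos 1, 4 and 6, and 0.14 to 0.22 in WT embryos. KO embryo 3 also had 37.5 CPM summed over 9 heart muscle markers. The sum was 1005 to 1534 CPM in the remaining KO embryos and 953 to 1357 CPM in WT embryos. Counts that lead a paragraph are therefore also given without these 3 embryos where that moves them. The 3 embryos were set apart by values of these same data. All p-values and calls without them are therefore descriptions only. In bulk RNA, fewer cells of a type and less RNA per cell cannot be told apart.

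The direction of the MHC-region genes as a group depended on which embryos were counted. Over all embryos 46 of the 90 members (51.1%) were higher in KO and 44 lower, against 51.6% higher among all genes tested, and the median log2 fold change was 0.01 for members and 0.01 for all genes. With KO embryos 2, 3 and 5 left out, 30 members were higher and 60 lower, with a median of -0.04, while all genes stayed nearly even, at 7588 higher and 7557 lower. No member was called at an adjusted p of 0.05 by edgeR, where 0.0203% of all genes were, and none by limma voom with quality weights, where 0.311% were. DESeq2 called 4 members, H2-Ab1 and Mdc1 higher and Csnk2b and Dhx16 lower in KO, against 2.33% of the genes it gave an adjusted p. These counts leave out the genes removed by name, some of which differed. Tubb5 was lower in all KO than in all WT embryos (log2 fold change -0.10, adjusted p = 0.00817 by DESeq2 and 0.0299 by limma voom). Mrps18b was at -0.32 (adjusted p = 0.0418 by DESeq2). Ier3 was at 2.28 (adjusted p = 0.0595 by DESeq2), with KO embryo 5 highest, and Notch4 was at -0.05. At an unadjusted p of 0.05 or less edgeR placed 26 of 90 members (28.9%), against 17.9% of all genes: 10 higher, where 10.1% of all genes were, and 16 lower, where 7.72% were.

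In 7 members (7.78%) the KO and WT embryos did not overlap, against 2.83% of all genes. All KO embryos exceeded all WT embryos for H2-Ab1 and Mdc1, as for 1.09% of all genes. All KO embryos were below all WT embryos for Wdr46, Vps52, Csnk2b, Dhx16 and Ppp1r11, as for 1.74% of all genes. The 114 genes of like level within 3 Mb of Traf7 had 22.8% at an unadjusted p of 0.05 or less and 2.63% without overlap, and 333 other protein-coding genes of chromosome 17 had 19.5% and 2.10%. No test of the difference between these groups of genes was made. Without KO embryos 2, 3 and 5, 19 members (21.1%; 4 higher and 15 lower) were at an unadjusted p of 0.05 or less, against 11.4% of all genes, 13 members (14.4%) did not overlap, against 6.45%, and 1 member (1.11%), H2-Ab1, was called by edgeR, against 36 of 15145 genes (0.238%).

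**Figure D1:**
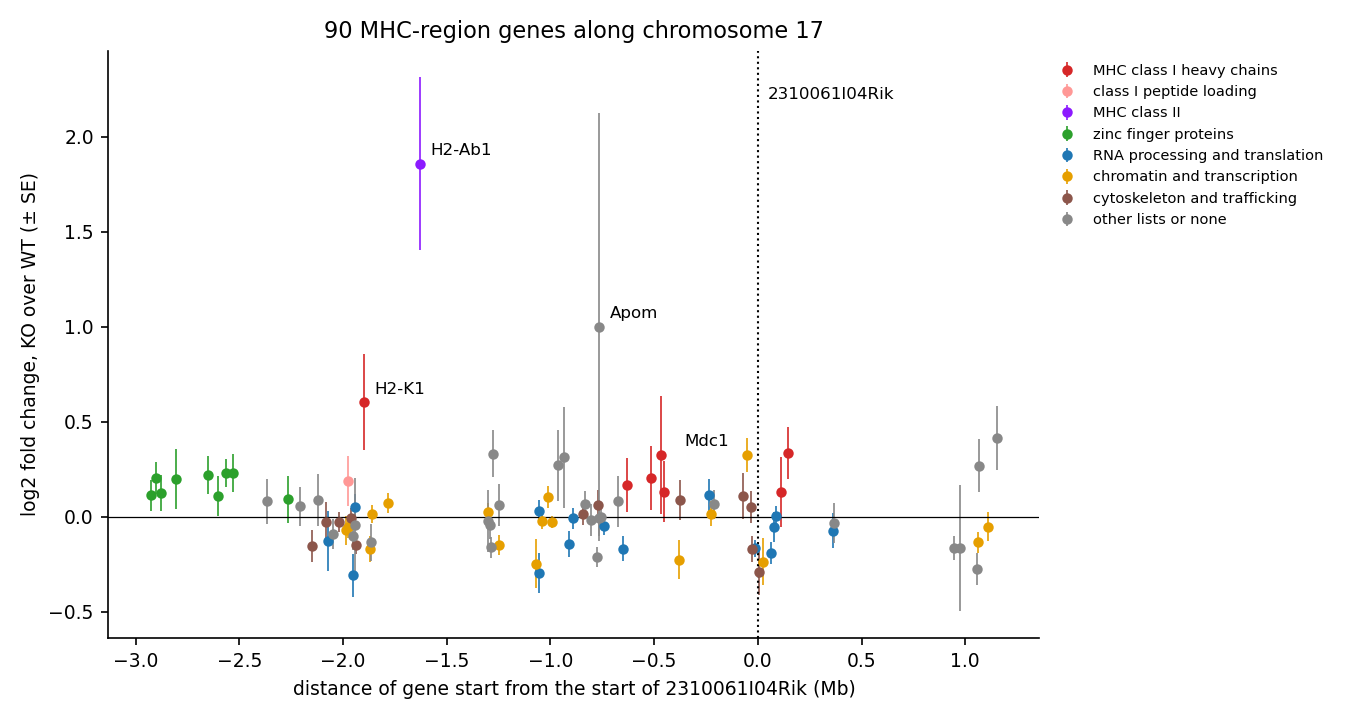
Log2 fold change of KO over WT (points, with bars for ± SE of the edgeR fit) of the 90 members against the distance of their start from that of 2310061I04Rik (dotted line), coloured by role list. H2-Ab1, at 1.86, Apom, at 1.0, and H2-K1, at 0.60, are the 3 members beyond 0.5, and the 8 genes farthest to the left, all zinc finger genes, lie above 0.

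The members were spread most widely in KO embryos 5 and 3. The number of members further than 0.25 (log2 scale) from their WT mean reached 52 for KO embryo 5 and 27 for KO embryo 3, against 10 to 16 in the remaining 4 KO embryos and 5 to 12 in WT embryos. The interquartile range of the members for KO embryo 5 was 0.66, where that of all genes was 0.68, and for KO embryo 3 it was 0.32, where that of all genes was 0.39. The SD on the log2 scale was larger in KO than in WT for 65 of 90 members (72.2%), against 76.7% of all genes.

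**Figure D2:**
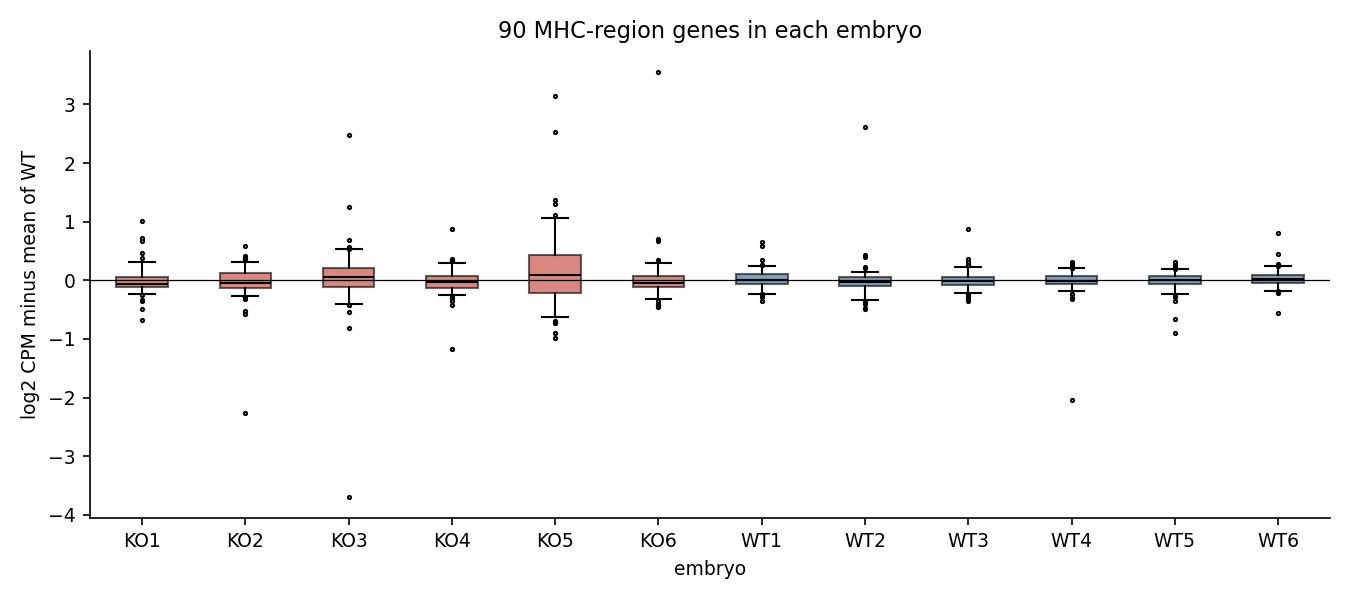
Log2 CPM minus the WT mean of the 90 members in each of the 6 KO embryos (left) and 6 WT embryos (right); boxes span the quartiles, lines inside are medians and whiskers reach the 5th and 95th percentiles. The medians lie between -0.06 and 0.10, and KO embryo 5 has the widest box, with 52 members more than 0.25 from the WT mean.

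H2-Ab1 (34263209 to 34269418, plus strand), the beta chain of the class II molecule I-A, was higher in every KO embryo. It had 5.19 to 30.9 CPM (median 6.67) in KO and 2.83 to 3.94 CPM (median 3.39) in WT. KO embryos 5 and 3, at 30.9 and 19.6 CPM, stood far above the other KO embryos, at 5.19 to 6.97 CPM, and these in turn lay above all WT embryos. The log2 fold change was 1.86 (SE 0.454; 3.62-fold), with adjusted p = 0.165 by edgeR, 0.0120 by DESeq2 and 0.0617 by limma voom. Without KO embryos 2, 3 and 5 the log2 fold change was 0.87 and the edgeR adjusted p 0.0211. Because these embryos were set apart by their values in the same data, this p-value does not replace that of all embryos. In leave-one-out fits it lay between 1.35, without KO embryo 5, and 2.02.

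The partners of H2-Ab1 were near 0 counts. H2-Aa, the alpha chain that pairs with it, had 4 counts over all KO embryos and 7 over all WT embryos, against 1523 counts of H2-Ab1 in KO and 355 in WT. Cd74, the invariant chain that guides class II molecules to the endosome, had 13 counts in KO and 23 in WT, and Ciita 9 in KO and 4 in WT. H2-Eb1, the beta chain of I-E, averaged 0.503 ± 0.321 CPM in KO embryos and 0.584 ± 0.252 CPM in WT embryos (SD, n = 6 each). H2-DMa, a chain of the peptide exchange factor, averaged 0.888 ± 0.435 CPM in KO embryos and 0.478 ± 0.229 CPM in WT embryos. H2-Ab1 was the 1 class II gene of the list with a group mean above 1 CPM.

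Markers of macrophages, which can carry class II, were near 0 CPM. All 13 had a mean under 1 CPM. Adgre1 had 0 counts over all KO embryos and 2 over all WT embryos. Of the 3 markers that were tested 2 were lower and 1, Mrc1, was higher in KO. Csf1r had 64 counts over all KO embryos and 86 over all WT embryos, and Cd68 had 62 and 68. Mrc1 had 118 counts over all KO embryos and 61 over all WT embryos, and it was highest in KO embryo 5, at 2.27 CPM. KO embryo 3 had 0.763 CPM of Mrc1, less than KO embryo 6 at 1.32 CPM. The summed level of all 13 markers was 2.09 to 4.08 CPM in KO and 2.87 to 4.79 CPM in WT. This sum was 3.53 and 3.05 CPM in KO embryos 5 and 3, the embryos with most H2-Ab1. The same 2 embryos had the highest level of Bnip3, a gene outside the region that marks mitochondria for removal and is turned on in low oxygen, with 323 and 328 CPM. The remaining KO embryos had 90.4 to 132 CPM of Bnip3 and WT embryos 47.2 to 65.5 CPM. Bnip3 was picked after its values were seen, and the part of its difference in the level of H2-Ab1 was not tested.

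All 7 class I heavy chain genes among the members had a positive log2 fold change (median 0.20), and none was called. H2-K1 (33996017 to 34000333, minus strand), which encodes the classical class I molecule H2-K, had 10.08 to 29.9 CPM (median 17.6) in KO and 10.2 to 18.9 CPM (median 11.9) in WT. KO embryos 3 and 5, at 29.9 and 27.3 CPM, were highest, KO embryo 6 was below every WT embryo, and the groups overlapped. The log2 fold change was 0.60 (SE 0.252, edgeR adjusted p = 0.240), 0.48 without KO embryo 5 and 0.23 without KO embryos 2, 3 and 5.

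H2-T22 (36037128 to 36042747, minus strand), a nonclassical class I molecule that gamma delta T cells recognise, had 6.45 to 10.2 CPM (median 7.69) in KO and 5.25 to 7.23 CPM (median 6.54) in WT. All 6 KO embryos lay above the WT mean, with KO embryos 3 and 5 highest, but 3 KO embryos fell inside the WT range. Its log2 fold change was 0.34 (SE 0.136, edgeR adjusted p = 0.230). It was 0.08 with KO embryos 2, 3 and 5 left out. H2-D1, the other classical molecule of the strain, had 14.4 to 27.8 CPM (median 18.3) in KO and 14.9 to 20.5 CPM (median 17.6) in WT, and its groups overlapped over most of their range (log2 fold change 0.17, SE 0.141, edgeR adjusted p = 0.539). The value for H2-D1 was 0.04 when KO embryo 5 alone was left out.

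The remaining class I members were low. H2-Q4 and H2-Q7, nonclassical genes of the Q region, had 5.12 to 11.1 CPM (median 7.33) and 5.21 to 8.06 CPM (median 6.20) in KO, against 6.15 to 7.59 CPM (median 7.07) and 4.19 to 7.60 CPM (median 5.81) in WT. H2-Q6 had 1.55 to 5.98 CPM (median 2.84) in KO and 1.46 to 3.76 CPM (median 2.35) in WT, and H2-T24 had 2.26 to 4.21 CPM (median 3.04) in KO and 2.33 to 3.45 CPM (median 2.65) in WT. KO embryo 5 was the highest of all embryos for each of these 4 genes. Their log2 fold changes were between 0.13 and 0.33, with SE between 0.160 and 0.310, and the edgeR adjusted p was at least 0.531. Leaving out 1 embryo moved each of them by more than 1.5 times: leaving out KO embryo 5 gave 0.01 for H2-Q6, 0.02 for H2-T24 and 0.09 for H2-Q4, and leaving out WT embryo 2 gave 0.05 for H2-Q7. Without KO embryo 5 the class I median was 0.06, and without KO embryos 2, 3 and 5 it was 0.02, with 4 of 7 higher, and H2-D1, H2-Q4 and H2-Q7 turned to -0.08, -0.07 and -0.02. Class I genes are near-identical copies of each other, and reads may be split among them, so single levels are uncertain.

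The promoters of the class I genes share sequence, which is shown here because all 7 genes had a positive log2 fold change over all embryos. Only 4 of the 7 stayed higher without KO embryos 2, 3 and 5. RefSeq (GRCm38.p6) gave promoter windows for 77 of the 90 members, 6 of the 7 class I genes among them. The 250 bases before the start of transcription, at the upper coordinate for genes on the minus strand, were searched on both strands. The motifs were GGGGATT, letters found within sites for NF-kappaB proteins, and CCAAT, the motif of the factor NF-Y. On the other strand the first reads AATCCCC. The other motif then reads ATTGG. The motifs share 0 bases in the class I windows. In the sequences of 4 class I genes below, written 5′ to 3′ on the strand of the gene, capitals mark these motifs.
H2-K1 (chr17:34000348-34000597, minus strand): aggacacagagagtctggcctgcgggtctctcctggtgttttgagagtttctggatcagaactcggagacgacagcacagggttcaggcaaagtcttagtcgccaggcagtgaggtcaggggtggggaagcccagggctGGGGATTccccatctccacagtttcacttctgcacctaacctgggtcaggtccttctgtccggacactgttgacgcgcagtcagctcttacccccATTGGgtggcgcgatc
H2-D1 (chr17:35262844-35263093, plus strand): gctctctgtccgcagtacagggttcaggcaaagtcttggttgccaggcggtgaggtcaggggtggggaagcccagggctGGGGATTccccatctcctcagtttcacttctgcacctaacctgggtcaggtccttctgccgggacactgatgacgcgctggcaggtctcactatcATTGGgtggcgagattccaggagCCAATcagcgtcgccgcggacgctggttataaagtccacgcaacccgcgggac
H2-Q6 (chr17:35424600-35424849, plus strand): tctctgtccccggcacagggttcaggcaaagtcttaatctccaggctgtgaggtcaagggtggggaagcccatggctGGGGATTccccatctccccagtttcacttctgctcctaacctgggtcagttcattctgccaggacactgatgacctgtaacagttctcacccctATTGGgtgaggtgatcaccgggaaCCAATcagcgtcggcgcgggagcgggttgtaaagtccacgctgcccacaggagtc
H2-T22 (chr17:36042743-36042992, minus strand): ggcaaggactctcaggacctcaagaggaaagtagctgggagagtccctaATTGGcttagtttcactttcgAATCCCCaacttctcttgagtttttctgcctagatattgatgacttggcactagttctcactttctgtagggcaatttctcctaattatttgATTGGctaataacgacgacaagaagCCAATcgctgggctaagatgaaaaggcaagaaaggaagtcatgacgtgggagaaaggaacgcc
GGGGATT was found in all 6 class I genes with a window and in 1 other member, Trim26: 7 of 77 members (9.09%), against 2.76% of all 32851 windows. CCAAT was found in all 6 class I genes with a window, in 37 of 77 members (48.1%) and in 33.8% of all windows. The class I windows resemble each other, so their matches are not independent, and the GGGGATT share among members rests on 1 gene family. A match is a description of the letters only, and a part of these letters in the KO values was not tested.

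**Figure D3:**
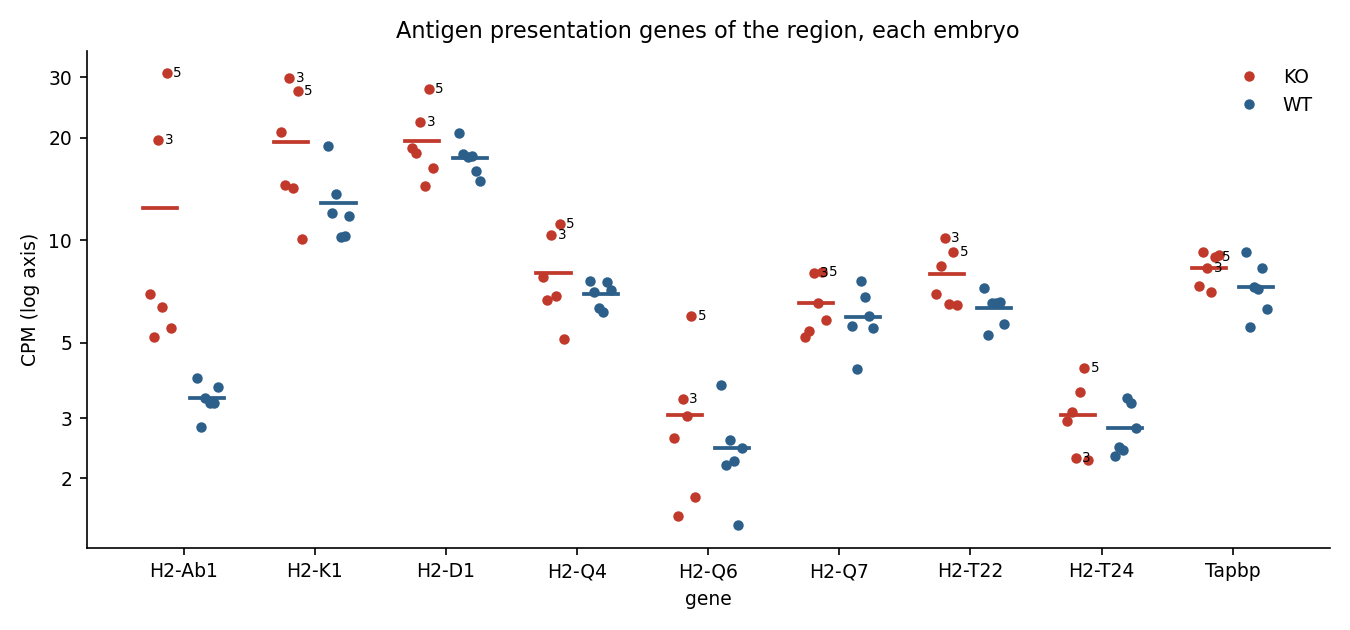
CPM (log axis) of the class II, class I and peptide loading members in each KO embryo (red, left of each pair) and WT embryo (blue, right); bars are group means and the digits 3 and 5 mark KO embryos 3 and 5. H2-Ab1 is the gene without overlap, at 5.19 to 30.9 CPM in KO and 2.83 to 3.94 CPM in WT, and KO embryo 5 is high for every class I gene.

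The listed genes of the region that load class I molecules were low in both groups. Tapbp, which encodes tapasin, the chaperone that holds class I molecules at the peptide transporter, had 7.04 to 9.23 CPM (median 8.61) in KO and 5.55 to 9.20 CPM (median 7.23) in WT, with overlapping groups (log2 fold change 0.19, SE 0.130, edgeR adjusted p = 0.451); its gene model overlaps Zbtb22. The Tapbp value was 0.12 without WT embryo 2 and 0.10 without KO embryos 2, 3 and 5. Tap1, a subunit of the peptide transporter, averaged 1.304 ± 0.678 CPM in KO embryos and 0.896 ± 0.344 CPM in WT embryos (SD, n = 6 each), and its partner Tap2 and the immunoproteasome subunits Psmb8 and Psmb9 were under 0.2 CPM on average in both groups. Outside the region, 26 of 30 listed genes of antigen presentation were tested, with 9 higher and 17 lower. At an unadjusted p of 0.05 or less 1 was higher and 5 were lower (23.1%, against 17.9% of all genes), and edgeR called none. B2m, the light chain of class I molecules, averaged 23.8 ± 4.19 CPM in KO embryos and 24.7 ± 2.34 CPM in WT embryos (SD, n = 6 each; log2 fold change -0.06, SE 0.109). Pdia3, a thiol oxidoreductase of the class I loading complex, had 690.2 to 791 CPM in KO and 795 to 848 CPM in WT, with no overlap (log2 fold change -0.14; adjusted p = 0.169 by edgeR, 0.0401 by DESeq2). Erap1, the peptidase that trims peptides in the endoplasmic reticulum, had 3.51 to 5.67 CPM in KO and 5.87 to 6.76 CPM in WT, again with no overlap (log2 fold change -0.37, edgeR adjusted p = 0.194). Both were picked from the list after their values were seen.

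5 members had other immune roles, 1 higher and 4 lower. This turned to 3 higher and 2 lower, with a median of 0.01, when KO embryos 2, 3 and 5 were left out. Trim26, a ubiquitin ligase of the tripartite motif family, had 29.1 to 36.1 CPM (median 32.9) in KO and 33.1 to 39.2 CPM (median 36.7) in WT. Every KO embryo was below the WT mean, though the ranges met (log2 fold change -0.16, SE 0.0651, edgeR adjusted p = 0.226; -0.08 without KO embryos 2, 3 and 5). Nfkbil1, a nuclear protein with resemblance to NF-kappaB inhibitors, had 8.26 to 14.8 CPM (median 11.03) in KO and 7.97 to 11.3 CPM (median 11.1) in WT (log2 fold change 0.08, SE 0.135, edgeR adjusted p = 0.779), and its gene model overlaps Atp6v1g2. The Nfkbil1 value was 0.01 without WT embryo 2 and turned to -0.01 without KO embryo 5.

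Trim10, a ubiquitin ligase of maturing red cells in the mouse, was among the 3 members with the largest spread. It had 2.39 to 9.09 CPM (median 4.70) in KO and 3.71 to 10.3 CPM (median 4.86) in WT, and no difference beyond the spread was seen (log2 fold change -0.16, SE 0.333, edgeR adjusted p = 0.825). The value was -0.39 without KO embryo 6 and turned to 0.07 without WT embryo 3. The 9 primitive erythroid markers, all with counts, summed to 2649 to 6237 CPM in KO and 2749 to 6862 CPM in WT. Trim10 was highest in WT embryo 3 and KO embryo 6, the embryos with the highest erythroid sum of their group, and the part of that sum in its level was not tested.

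The zinc finger genes of the cluster at the far end of the window, most of them of the family that carries a KRAB repression domain, lay on the same side. All 9 had a positive log2 fold change (median 0.20), and none was called. At an unadjusted p of 0.05 or less were 4 of them, Zfp952, Zfp955a, Zfp81 and Zfp101 (44.4%, against 17.9% of all genes). Zfp81 had 25.1 to 33.1 CPM (median 27.8) in KO and 22.2 to 26.2 CPM (median 24.1) in WT, with all 6 KO embryos above the WT mean (log2 fold change 0.23, SE 0.0725, edgeR adjusted p = 0.177). Zfp952 had 12.5 to 15.7 CPM (median 13.7) in KO and 10.9 to 13.2 CPM (median 12.3) in WT, again with 6 of 6 KO embryos above the WT mean (log2 fold change 0.20, SE 0.0857, edgeR adjusted p = 0.241). Both pairs of groups overlapped at their edges. The list holds the zinc finger genes of this cluster and Zfp414, and other members that encode zinc finger proteins were listed by another role. Of these, Zfp57, a KRAB protein that guards imprinted genes and lies 1.11 Mb to the right, was at -0.05 (SE 0.0766), and Prr3 was at -0.05 (SE 0.0794), so the shared side depends on how the list was drawn.

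Taken per embryo, the median log2 ratio of the 9 zinc finger genes to their WT mean was 0.10 to 0.21 in 5 KO embryos and 0.45 in KO embryo 5, against -0.11 to 0.08 in WT embryos. These genes start between 2.26 and 2.93 Mb before 2310061I04Rik, and 8 of them fill the outermost 0.5 Mb of the window. Without KO embryo 5 the list kept 9 of 9 higher with a median of 0.13. Of the 9, 2 were then at an unadjusted p of 0.05 or less (22.2%, against 16.9% of all genes). Without KO embryos 2, 3 and 5 the list had 7 of 9 higher with a median of 0.13. Such genes are close copies of each other, and how reads were split among them is not given.

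Of 17 members with roles in chromatin and transcription 11 were lower and 6 higher (median log2 fold change -0.05). They were 12 lower and 5 higher without KO embryo 5, and 14 lower and 3 higher without KO embryos 2, 3 and 5. Mdc1 (35841515 to 35859670, plus strand), a scaffold that gathers repair proteins at broken DNA, had 150.4 to 229 CPM (median 166) in KO and 138 to 149 CPM (median 143) in WT. All KO embryos exceeded all WT embryos, with KO embryos 5 and 3 highest at 229 and 208 CPM. The log2 fold change was 0.33 (SE 0.0907), with adjusted p = 0.169 by edgeR and 0.0438 by DESeq2, and 0.17 without KO embryos 2, 3 and 5. Without these 3 embryos its edgeR adjusted p was 0.174. 4 others were lower at an unadjusted p of 0.05 or less, Atf6b, Znrd1, Ring1 (a Polycomb ubiquitin ligase) and Tcf19, the last 2 named after their values were seen. With Mdc1 these made up 29.4% of the list, against 17.9% of all genes.

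Atf6b, a membrane-bound factor of the unfolded protein response, had 83.5 to 107 CPM (median 97.2) in KO and 103 to 112 CPM (median 106) in WT, with 5 of 6 KO embryos below the WT mean (log2 fold change -0.15, SE 0.0540, edgeR adjusted p = 0.203). Znrd1, a subunit of RNA polymerase I, had 28.6 to 32.1 CPM (median 31.3) in KO and 31.7 to 36.6 CPM (median 33.6) in WT (log2 fold change -0.13, SE 0.0533, edgeR adjusted p = 0.227). The ranges met only at their edges, and each KO embryo was below the WT mean of Znrd1. Genes of broad chromatin function such as Brd2, a bromodomain reader of acetylated histones, and Ehmt2, the histone H3 lysine methyltransferase G9a, stayed near 0, at 0.07 (SE 0.0519) and -0.03 (SE 0.0332) on the log2 scale. Both were named after their values were seen.

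RNA processing and translation had 11 of 15 members lower in KO (median log2 fold change -0.07). At an unadjusted p of 0.05 or less 5 were lower and no member higher (33.3%, against 17.9% of all genes). Dhx16 (35879819 to 35892670, plus strand), an RNA helicase that remodels the spliceosome, had 76.97 to 86.6 CPM (median 81.6) in KO and 87.9 to 95.8 CPM (median 92.2) in WT. The difference was small, and no KO embryo reached the lowest WT embryo. The log2 fold change was -0.16 (SE 0.0451), with adjusted p = 0.169 by edgeR and 0.0259 by DESeq2, and -0.18 to -0.14 over all alternatives tried.

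Wdr46, a nucleolar protein of ribosome assembly, had 61.5 to 109.3 CPM (median 100.5) in KO and 109.4 to 125 CPM (median 114) in WT. The groups touched without overlapping, and KO embryo 5 was the lowest (log2 fold change -0.31, SE 0.115, edgeR adjusted p = 0.209). Abcf1, an ATP-binding protein that works with ribosomes, had 213 to 269.4 CPM (median 258) in KO and 268.9 to 311 CPM (median 287) in WT, with 1 KO embryo at the lower edge of WT (log2 fold change -0.19, SE 0.0567, edgeR adjusted p = 0.169). Dxo, an enzyme that removes faulty caps from mRNA, had 14.5 to 22.8 CPM (median 20.4) in KO and 21.2 to 27.2 CPM (median 24.4) in WT (log2 fold change -0.29, SE 0.105, edgeR adjusted p = 0.199), and its gene model meets that of Skiv2l. Ddx39b, a helicase of splicing and mRNA export, had 377 to 520.3 CPM (median 505) in KO and 518 to 556 CPM (median 553) in WT, with KO embryo 5 far below the rest (log2 fold change -0.17, SE 0.0670, edgeR adjusted p = 0.228). In each of these 4 genes all 6 KO embryos were below the WT mean. The values without KO embryos 2, 3 and 5 were smaller, at -0.11 for Wdr46, -0.11 for Abcf1, -0.13 for Dxo and -0.10 for Ddx39b, and Ddx39b was already at -0.10 without KO embryo 5 alone. With KO embryos 2, 3 and 5 left out, 14 of 15 members were lower, with a median of -0.04. Of the 15, 4 were then at an unadjusted p of 0.05 or less (26.7%, against 11.4% of all genes).

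12 members serve the cytoskeleton and membrane traffic, 5 higher and 7 lower (median log2 fold change -0.02). Vps52 (33955812 to 33966984, plus strand), a subunit of tethering complexes for vesicles that return to the Golgi, had 49.5 to 52.8 CPM (median 51.1) in KO and 54.0 to 61.6 CPM (median 56.2) in WT. The KO embryos lay closer together than the WT embryos, and all were below them (log2 fold change -0.15, SE 0.0459; adjusted p = 0.173 by edgeR, 0.0575 by DESeq2). The 5′ end of Vps52 overlaps the ribosomal protein gene Rps18 on the other strand, and the strand setting of the counting is not given. All 12 were lower, with a median of -0.08, once KO embryos 2, 3 and 5 were left out.

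Among genes of folding and turnover, 3 higher and 4 lower, Ppp1r11 (36948356 to 36951741, minus strand), an inhibitor of protein phosphatase 1, had 33.1 to 50.3 CPM (median 48.0) in KO and 51.9 to 56.2 CPM (median 55.1) in WT. All KO embryos were below all WT embryos, KO embryo 5 by most (log2 fold change -0.27, SE 0.0844; adjusted p = 0.173 by edgeR, 0.0807 by DESeq2). For Ppp1r11 the value was -0.17 with KO embryos 2, 3 and 5 left out. Pfdn6, a subunit of the chaperone prefoldin, had 61.0 to 85.6 CPM (median 75.5) in KO and 72.7 to 87.3 CPM (median 81.8) in WT, and the groups overlapped widely (log2 fold change -0.10, SE 0.0742, edgeR adjusted p = 0.484). The Pfdn6 value was -0.05 without KO embryo 5 and 0.0027 without KO embryos 2, 3 and 5.

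Metabolic genes split evenly, 5 higher and 5 lower. With KO embryos 2, 3 and 5 left out they were 4 higher and 6 lower. Agpat1, which makes phosphatidic acid in lipid synthesis, had 79.5 to 93.4 CPM (median 87.8) in KO and 92.4 to 104 CPM (median 96.3) in WT, with 6 of 6 KO embryos below the WT mean (log2 fold change -0.16, SE 0.0537, edgeR adjusted p = 0.190); its gene model overlaps Egfl8. Ppt2, a lysosomal thioesterase, had 11.4 to 20.5 CPM (median 14.5) in KO and 10.9 to 13.2 CPM (median 11.9) in WT, with 5 of 6 KO embryos above the WT mean (log2 fold change 0.33, SE 0.122, edgeR adjusted p = 0.205; 0.16 without KO embryos 2, 3 and 5).

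Apom, the lipid-carrying apolipoprotein M, varied most of all members. It had 0 to 16.3 CPM (median 1.65) in KO and 0.230 to 8.498 CPM (median 1.08) in WT, so that the log2 fold change of 1.0 had an SE of 1.13 (edgeR adjusted p = 0.665). The value rested on single embryos: it was 0.0038 without KO embryo 6 and 2.10 without WT embryo 2. KO embryos 6 and 5, at 16.3 and 7.93 CPM, and WT embryo 2, at 8.498 CPM, were high, and KO embryo 3 had 0 counts, which allows up to 0.153 CPM. The 10 yolk sac endoderm markers, of which Apoc2 had no count, summed to 3.0 to 477 CPM in KO and 27.9 to 307 CPM in WT. Their sum was highest in the same 3 embryos, at 477, 349 and 307 CPM, and lowest in KO embryo 3, and its part in the level of Apom was not tested.

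Of 4 members for signalling, adhesion and matrix, Csnk2b (35116196 to 35122053, minus strand), the regulatory subunit of casein kinase 2, had the smallest p of all 90 members. It had 95.3 to 119 CPM (median 113) in KO and 123 to 132 CPM (median 128) in WT, and no KO embryo reached the WT range. The log2 fold change was -0.21 (SE 0.0508), with adjusted p = 0.165 by edgeR, 0.0223 by DESeq2 and 0.0585 by limma voom, and -0.15 without KO embryos 2, 3 and 5. The 5′ end of its gene model overlaps Gpank1 on the other strand. Gabbr1, a subunit of the receptor for the transmitter GABA and the member farthest to the right at 1.15 Mb, had 10.6 to 23.9 CPM (median 14.2) in KO and 9.74 to 13 CPM (median 11.6) in WT, with KO embryo 5 highest (log2 fold change 0.41, SE 0.170, edgeR adjusted p = 0.234). The Gabbr1 value was 0.24 without KO embryo 5 and 0.07 without KO embryos 2, 3 and 5.

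**Figure D4:**
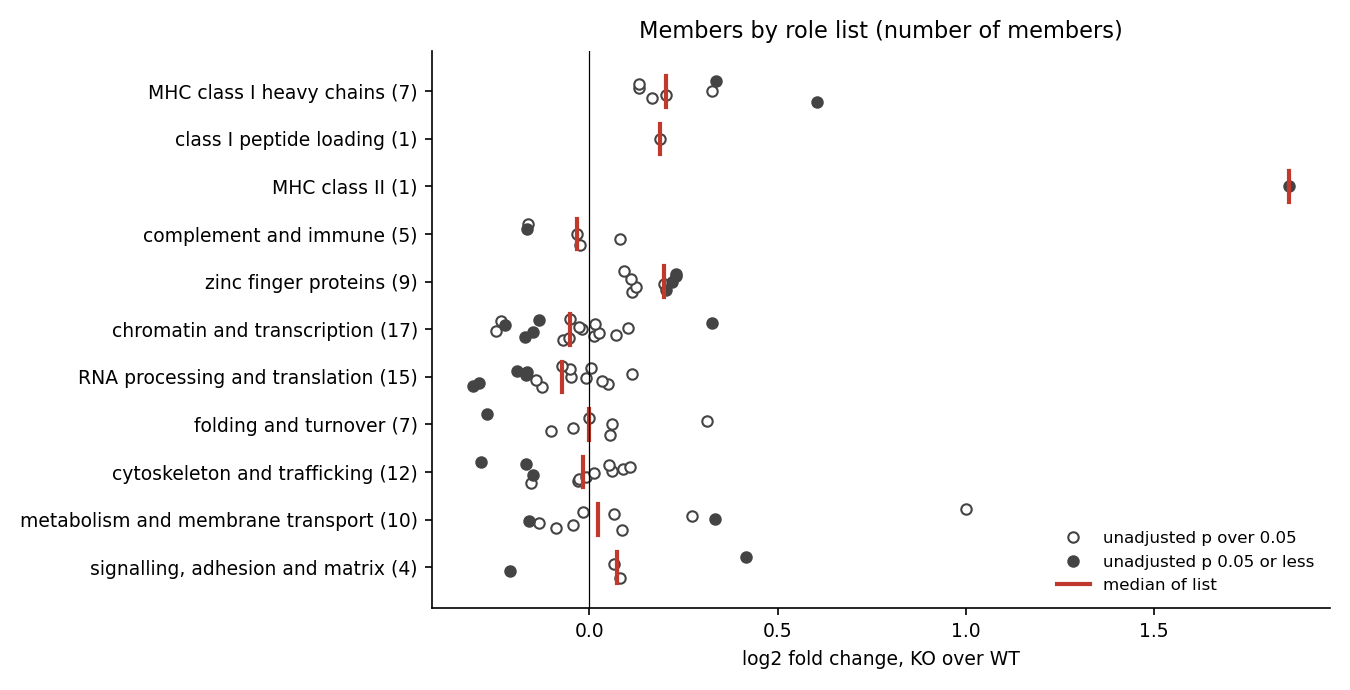
Log2 fold change of KO over WT of the members by role list, with the number of members in brackets; filled points have an unadjusted edgeR p of 0.05 or less and red bars are list medians. The class I list and the list of the zinc finger cluster lie wholly above 0, with medians of 0.20 each, and 11 of 15 RNA processing genes lie below 0.

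The 10 members nearest to 2310061I04Rik, 5 on each side and all within 0.1 Mb, did not share a direction: 4 lay above 0 and 6 below it, with a median log2 fold change of -0.11. Ier3, Tubb5 and Mrps18b also start within 0.1 Mb but were left out by name. 5 were at an unadjusted p of 0.05 or less, Mdc1 higher and Ppp1r18, Dhx16, Atat1 and Abcf1 lower. Dhx16 ends 6 bases before 2310061I04Rik on the opposite strand, so that the genes run towards each other, and the lower coordinate of Atat1 lies 163 bases beyond the upper coordinate of 2310061I04Rik, with both genes on the minus strand. Atat1, the enzyme that acetylates alpha-tubulin in microtubules, had 14.2 to 20.7 CPM (median 15.6) in KO and 14.3 to 23.5 CPM (median 21.2) in WT, with 5 of 6 KO embryos below the WT mean and WT embryo 2 as low as the KO embryos (log2 fold change -0.29, SE 0.126, edgeR adjusted p = 0.256). The Atat1 value was -0.47 with KO embryos 2, 3 and 5 left out. Ppp1r18, an actin-binding partner of protein phosphatase 1, had 40.8 to 51.8 CPM (median 45.6) in KO and 44.9 to 55.4 CPM (median 52.1) in WT, also with 5 of 6 KO embryos below the WT mean (log2 fold change -0.17, SE 0.0678, edgeR adjusted p = 0.231).

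The other near members did not pass an unadjusted p of 0.05. Ppp1r10, a nuclear targeting subunit of protein phosphatase 1, had 52.1 to 99.96 CPM (median 92.9) in KO and 92.8 to 108 CPM (median 103) in WT, with KO embryo 5 apart at the bottom (log2 fold change -0.24, SE 0.124, edgeR adjusted p = 0.331; -0.12 without KO embryo 5). Flot1, a scaffold of membrane microdomains, had 21.7 to 37.2 CPM (median 28.1) in KO and 25.3 to 30.7 CPM (median 26.3) in WT, and Nrm, a protein of the inner nuclear membrane, had 32.4 to 48.8 CPM (median 36.9) in KO and 35.5 to 39.5 CPM (median 36.5) in WT. For both, KO embryos lay on either side of the WT range. Prr3, a zinc finger protein, had 24.6 to 33.4 CPM (median 30.3) in KO and 27.9 to 33.6 CPM (median 31.1) in WT, and Gnl1, a GTP-binding protein, had 90.2 to 109 CPM (median 97.5) in KO and 91.5 to 106 CPM (median 96.8) in WT. The log2 fold changes of these 4 genes were between -0.05 and 0.11 with SE between 0.0517 and 0.119. Without KO embryo 5 they were 0.03 for Flot1, -0.03 for Nrm, -0.0021 for Prr3 and -0.03 for Gnl1. With those 3 divergent KO embryos (2, 3 and 5) left out, 9 of the 10 near members were lower, all but Mdc1, with a median of -0.11. At an unadjusted p of 0.05 or less 1 of the 10 was then higher and 5 lower (60.0%, against 11.4% of all genes). Leaving out KO embryo 5 alone also gave 1 higher and 5 lower (60.0%, against 16.9% of all genes).

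**Figure D5:**
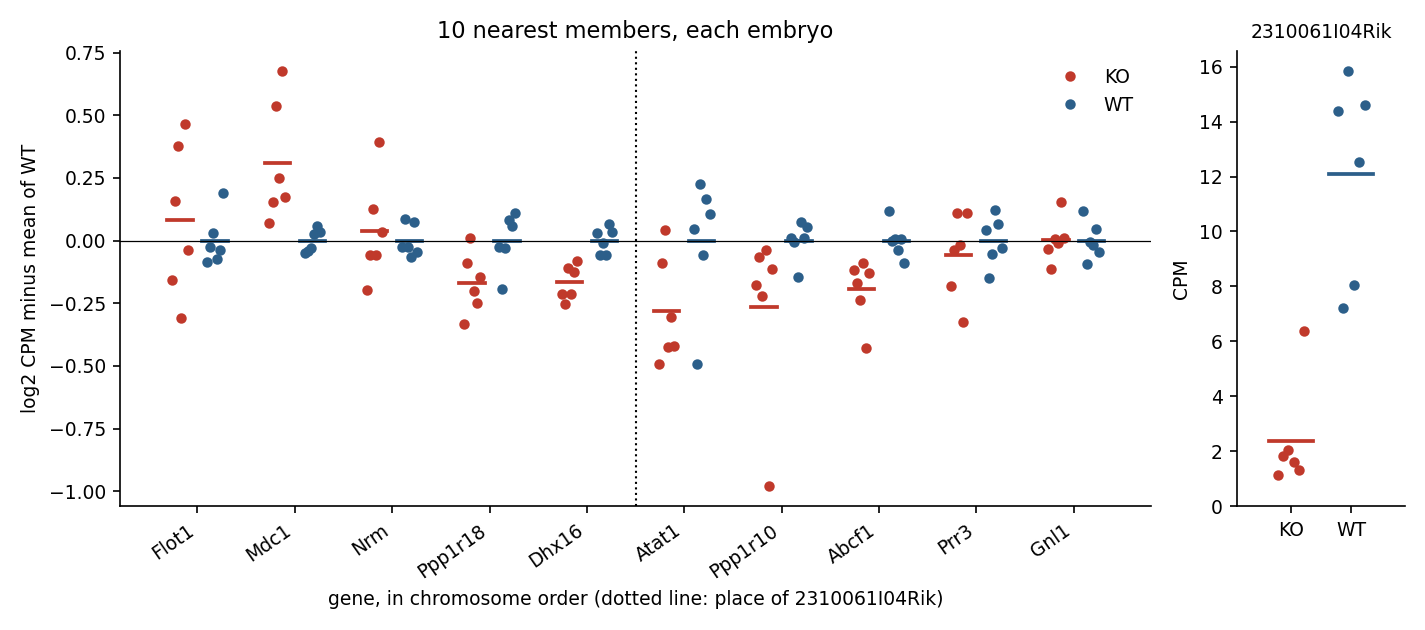
Left, log2 CPM minus the WT mean of the 10 nearest members in chromosome order, in each KO embryo (red, left of each pair) and WT embryo (blue, right), with bars for group means; right, CPM of 2310061I04Rik. Mdc1 is above WT in all KO embryos and Dhx16 below, while 2310061I04Rik has 1.14 to 6.39 CPM in KO and 7.20 to 15.8 CPM in WT.

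Along the chromosome the values did not change steadily with distance from 2310061I04Rik. The number of members at an unadjusted p of 0.05 or less was 5 of 10 within 0.1 Mb, 2 of 11 between 0.1 and 0.5 Mb, 3 of 20 between 0.5 and 1 Mb, 12 of 32 between 1 and 2 Mb and 4 of 17 beyond. Of all genes tested 17.9% were at such a p. In bins of 1 Mb the median log2 fold change was 0.09 in the bin farthest to the left, -0.02 and 0.06 in the next bins up to 2310061I04Rik, and -0.07 and -0.05 in the bins to its right. No member lay further right than 1.15 Mb. In bins of 0.5 Mb the outermost left bin, with 8 zinc finger genes, had a median of 0.20 and the bin beside it -0.03. 18 members have a gene model that overlaps another protein-coding gene with counts, 4 of them among the 26 at an unadjusted p of 0.05 or less.

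Levels per gene length (FPKM, the deposited unit) spanned 1.31 to 377 over the members. The highest were Rps18, a protein of the small ribosomal subunit, at 383 ± 42.1 FPKM in KO and 372 ± 25.5 FPKM in WT (SD, n = 6 each), and Rps28, of the same subunit, at 144 ± 31.7 FPKM in KO and 158 ± 33.3 FPKM in WT. Ddx39b followed at 128 ± 14.9 FPKM in KO and 144 ± 3.52 FPKM in WT. Ddah2, which breaks down methylated arginines that inhibit nitric oxide synthesis, had 123 ± 14.4 FPKM in KO and 118 ± 4.26 FPKM in WT. Prrc2a, a cytoplasmic RNA-binding protein, had 107 ± 7.42 FPKM in KO and 111 ± 5.56 FPKM in WT. Of these 5 only Ddx39b was at an unadjusted p of 0.05 or less, and the edgeR adjusted p of the other 4 was 0.629 to 0.737. Leaving out 1 embryo moved these 4 by more than 1.5 times: without KO embryo 5 the log2 fold change was -0.01 for Rps18, 0.02 for Ddah2 and -0.01 for Prrc2a, and without WT embryo 2 it was -0.03 for Rps28. Ribosomal protein genes have many processed copies in the genome, so the levels of Rps18 and Rps28 are uncertain. H2-K1 and H2-D1, the highest class I genes, had 7.37 and 7.49 FPKM in KO and 4.89 and 6.71 FPKM in WT, close to H2-Ab1 at 7.48 FPKM in KO and 2.08 FPKM in WT.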

How the data were processed

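RNA of 12 embryos was sequenced, 6 KO and 6 WT, and each embryo was 1 library. The authors deposited 1 table of counts per gene and FPKM values (counts per gene length and depth) for each embryo, and the submitters' processing notes name build GRCm38; no aligner, counter or strand setting is given in the sources used here. Deposited columns of group means, fold changes and p-values hold the authors' own comparison and were not used.

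Counts were tested over all genes that passed the expression filter of edgeR 4.0.16 (TMM scaling, robust quasi-likelihood F test, Benjamini-Hochberg adjustment over 14804 genes) in R 4.3.3, with DESeq2 1.42.0, limma 3.58.1 voom with quality weights, other scalings, no filter, a replicate block, other member limits and embryos left out as alternatives. CPM values are counts over TMM-adjusted library sizes, and log2 CPM per embryo used a prior count of 2. FPKM values served only to compare levels between genes. Tables and figures were made with Python 3.11.15. On simulated counts for 14804 genes of this comparison edgeR recovered 92.0% of 50 genes changed 2-fold and 14.3% of those changed 1.25-fold. It also called 6 unchanged genes. The simulated embryos shared the same dispersion for each gene, and none stood apart as some KO embryos did. The recovered shares may therefore be too high for these embryos, and a gene not called may still differ.

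Members and gene lists were chosen with earlier results of these data known. The members named are the 5 nearest to 2310061I04Rik on each side, all class I, peptide loading and class II members, those called by edgeR or DESeq2 or without overlap, the 15 with the smallest edgeR p, the 5 with the highest mean FPKM, the 3 with the largest SD and the 2 with the smallest p in each other role list; others are said to be chosen after their values were seen. Libraries of a group differed by more than counting noise, and floors cover counting error only. Promoter letters come from RefSeq (GRCm38.p6).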

Additional observations from a re-analysis of the deposited data

Results flagged for a closer look

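Among 84 groups of 6 embryos (2310061I04Rik and the named members, KO and WT each), 8 held 1 embryo far from the others by Dixon's test. Chance gives about 5% only for independent groups picked without regard to their values. Here members were named partly by their values, and the same embryos recur across genes, so the 8 cannot be read against that rate. KO embryo 6 had 6.39 CPM of 2310061I04Rik (others 1.14 to 2.03 CPM). KO embryo 5 was low for 3 genes: Ddx39b at 377 CPM (others 498 to 520.3 CPM), Ppp1r10 at 52.1 CPM (others 88.2 to 99.96 CPM) and Ppp1r11 at 33.1 CPM (others 44.8 to 50.3 CPM). WT embryo 2 had 8.498 CPM of Apom (others 0.230 to 2.33 CPM) and 7.97 CPM of Nfkbil1 (others 10.9 to 11.3 CPM). WT embryo 1 had 518 CPM of Ddx39b (others 551 to 556 CPM), and WT embryo 3 had 51.9 CPM of Ppp1r11 (others 54.7 to 56.2 CPM).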

How the results depend on the processing

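edgeR called 0 members under each scaling, without the filter and in each leave-one-out fit (0 to 0), DESeq2 called 4, and edgeR without KO embryos 2, 3 and 5 called 1. Members at an unadjusted p of 0.05 or less numbered 18 to 26 with 1 embryo left out. Without KO embryo 5 they were 25.6%, against 16.9% of all genes. In a window of 1 Mb, with all embryos, they were 10 of 41 (24.4%), against 17.9% of all genes. Members without overlap numbered 7 to 10 with 1 embryo left out, where the share of all genes is not given here. They were 13 (14.4%) without KO embryos 2, 3 and 5, against 6.45% of all genes. Leaving out these embryos thus raised the share of all genes too, from 2.83%. In the window of 1 Mb, with all embryos, members without overlap were 3 of 41 (7.32%), against 2.83% of all genes. The median of members was -0.01 to 0.02 with 1 embryo left out, -0.02 by voom and -0.04 without KO embryos 2, 3 and 5. In bins of 0.5 Mb the farthest bin had a median of 0.20, against 0.09 in bins of 1 Mb. 2310061I04Rik was at -2.35 and passed by DESeq2, and it was at -2.93 to -2.21 with 1 embryo left out; Traf7 was at -2.86 to -2.76. Replicate numbers did not pair the embryos (correlations of same-numbered embryos -0.316 to 0.285), and the fit with a replicate block called 0 members, with 21 at an unadjusted p of 0.05 or less; 2 of 6 KO embryos correlated best with their own number. Of 41 named members 30 kept their direction in all 20 alternatives and 11 turned. Without KO embryos 2, 3 and 5 log2 fold changes turned for Pfdn6 (0.0027), Rps18 (-0.0128), Ddah2 (-0.0879), Nfkbil1 (-0.0136), H2-D1 (-0.0849), H2-Q4 (-0.0742), H2-Q7 (-0.0220), Flot1 (-0.165), Nrm (-0.0720), Gnl1 (-0.0113) and Trim10 (0.116). By limma voom they turned for Ddah2 (-0.0323), Nfkbil1 (-0.0203), H2-Q7 (-0.0063), Flot1 (-0.0852), Nrm (-0.0461) and Gnl1 (-0.0111), and by DESeq2 for Gnl1 (-0.0020). With 1 embryo left out the ranges crossed 0 for Rps18 (-0.0100 to 0.0836), Nfkbil1 (-0.0143 to 0.156), Nrm (-0.0277 to 0.0968), Gnl1 (-0.0287 to 0.0278) and Trim10 (-0.385 to 0.0720). The cause was not tested. No count of overlap was made for voom, the unfiltered fit or the block.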
